A study of Mus musculus with 5 samples.

Results

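The genes of liver ketone body metabolism and of the fasting programme of the nuclear receptor PPAR-alpha were followed across lean, diet-fed and leptin-deficient mice given nordihydroguaiaretic acid (NDGA), a plant lignan known as a lipoxygenase inhibitor and antioxidant. The set was Cpt1a, Bdh1, Acat1, Aacs, Fgf21, Pdk4 and Angptl4, chosen by name: every probe that the platform's annotation pairs with one of these symbols was taken. All 7 genes were found, under their current symbols, on 10 of the 29922 probes and among 16637 named genes. Bdh1 had 2 probes, Angptl4 had 3 and the other 5 genes had 1 each. No cut on measured values chose the genes, but earlier results of these data were known when they were chosen.

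Liver total RNA was hybridised in 1 colour (Cy5) to 5 Phalanx Mouse OneArray slides, 1 for each group. The groups were wild-type (WT) C57BL/6 mice on chow, WT mice on a high-fat diet, WT mice on the high-fat diet containing NDGA, ob/ob mice on chow, and ob/ob mice on chow containing NDGA. The dose was 2.5 g of NDGA per kg of food and all diets were given for 16 weeks. The ob/ob mouse, on the same C57BL/6 background, lacks functional leptin in every tissue and overeats. RNA of 3 animals was used for each group, and the labels do not say if it was pooled, or give the age, sex or feeding state of the mice at sampling. With 1 array in each group there are no replicates, so no test or error could be computed and every difference below is between 2 arrays. No WT group on chow received NDGA, and the NDGA comparison in WT mice was made on the high-fat diet while that in ob/ob mice was made on chow.

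In fasting, the liver takes up fatty acids from adipose tissue, carries them into mitochondria on carnitine and oxidises them to acetyl-CoA, much of which becomes acetoacetate and beta-hydroxybutyrate for other organs. PPAR-alpha, switched on by fatty acids, raises the transcription of many enzymes of this route and of secreted factors such as FGF21 and ANGPTL4. The pathway is restrained by insulin and by malonyl-CoA, the first product of fatty acid synthesis, which blocks carnitine palmitoyltransferase 1.

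The deposited values are linear intensities. Their median differed between arrays, from 38.1 on ob/ob chow to 71.0 on ob/ob chow with NDGA, and the 5 arrays were therefore quantile normalized before log2(intensity + 50) was taken. Differences below are on that log2 scale, which understates the change of dim genes. As a guide to background, the 703 probes of olfactory receptor genes, which have no known use in hepatocytes, read medians of 16.4 to 25.9 and 90th percentiles of 204 to 319 over the 5 arrays. A gene was counted as expressed in a comparison when its 2-array mean reached the median of all genes. As a yardstick for technical spread, the SD per probe between the 2 brightest probes of one gene was 0.35 for the diet comparison, 0.33 for NDGA in WT, 0.28 for genotype and 0.46 for NDGA in ob/ob, over 922 genes. Only genes whose 2 brightest probes both had a 5-array mean at or above the median of all genes gave this yardstick. Cpt1a, Acat1 and Pdk4 lay below that level, so the yardstick may not hold for them. This yardstick holds no spread between animals and no noise that both probes share on an array. All 11 hepatocyte markers named on the array, of 14 in the list, were bright on every array, the dimmest being Apoa2 at 1143 to 2476.

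Ketone bodies are made from acetyl-CoA, and the genes on this route are taken first. Bdh1 encodes the mitochondrial dehydrogenase that converts acetoacetate to beta-hydroxybutyrate. Its brighter probe read 2418 on WT chow, 5964 on WT high-fat diet, 3577 on WT high-fat diet with NDGA, 3296 on ob/ob chow and 9868 on the ob/ob NDGA array. WT chow was the lowest array and ob/ob chow with NDGA the highest, and all 5 values lay at or above percentile 95.8 of their array. Bdh1 was 2.33-fold higher on high-fat diet than on chow in WT mice (log2 difference 1.22, percentile 99.1 of expressed genes) and 0.66 lower on the log2 scale with NDGA than without it on the high-fat diet. It was 0.76 higher in ob/ob than in WT mice on chow, and 0.49 higher with NDGA in ob/ob mice. The dimmer Bdh1 probe read 412, 558, 517, 326 and 796 in the same order, and its differences were 0.40, -0.18, -0.10 and 0.34. Both probes were highest in deposited intensity on ob/ob chow with NDGA, the brightest array as deposited. After normalization the brighter probe was 0.03 higher there than on WT high-fat diet, and the dimmer probe was highest on WT high-fat diet. The probes had opposite signs for ob/ob against WT, and the 2-fold diet difference was that of the brighter probe alone. With the mean of both probes the genotype difference was 0.33 and that for NDGA in WT -0.42.

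Macrophage markers moved in the same direction as the brighter Bdh1 probe in the first 3 comparisons. All 12 listed markers were higher on high-fat diet than on chow in WT mice (median difference 0.78), all 12 were lower with NDGA on the high-fat diet (median -0.88), and all 12 were higher in ob/ob than in WT on chow (median 0.81; with median centring, 11 of 12 for diet and for genotype), while with NDGA in ob/ob mice 8 of the 12 were higher (median 0.08). Their summed intensity was 6803 on WT chow, 10770 on WT high-fat diet, 5989 on WT high-fat diet with NDGA, 11376 on ob/ob chow and 20353 on the ob/ob NDGA array, and the part of cell composition in the Bdh1 values was not tested. In whole liver, fewer cells of a type and less RNA per cell cannot be told apart.

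Aacs encodes acetoacetyl-CoA synthetase, a cytosolic enzyme that returns acetoacetate to lipid synthesis and so uses ketone bodies rather than making them. Its probe read 594 on WT chow, 1274 on WT high-fat diet, 1437 on WT high-fat diet with NDGA, 699 on ob/ob chow and 2057 on the ob/ob NDGA array. The pair of chow arrays without NDGA were the lowest and the other 3 were higher. Aacs was 2.02-fold higher on high-fat diet in WT mice (log2 difference 1.01, percentile 98.0 of expressed genes), just past the 2-fold line. With NDGA on the high-fat diet it differed by 0.14, less than the spread between probes. It was 0.43 higher in ob/ob than in WT on chow, beyond the spread between probes, but 0.22 without normalization. With NDGA in ob/ob mice it was 0.61 higher, also beyond that spread.

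Acat1, the mitochondrial thiolase that joins 2 acetyl-CoA and also splits acetoacetyl-CoA, was dim. Its probe read 11.0 on WT chow, 21.1 on WT high-fat diet, 19.0 on WT high-fat diet with NDGA, 12.9 on ob/ob chow and 83.5 on the ob/ob NDGA array. These values lay at percentiles from 36.8 to 71.7 of the olfactory receptor probes of their own array, within the range of background. Only the ob/ob NDGA array stood apart, at 0.72 above ob/ob chow. The other differences were 0.28 for diet, -0.12 for NDGA in WT and 0.05 for genotype, and Acat1 passed the filter on dim genes in none of the 4 comparisons.

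Cpt1a encodes the liver form of carnitine palmitoyltransferase 1, the enzyme at the gate of mitochondrial fatty acid oxidation. Its probe read 66.9 on WT chow, 55.5 on WT high-fat diet, 139.9 on WT high-fat diet with NDGA, 40.1 on ob/ob chow and 130.4 on the ob/ob NDGA array. The highest pair were the NDGA arrays and the lowest was ob/ob chow. The NDGA difference was 0.75 in WT mice on high-fat diet and 0.52 in ob/ob mice. The diet difference was -0.13 and the genotype difference -0.33. Cpt1a passed the filter for NDGA in WT only, where its high array carried it past, and all 5 values lay at percentiles from 64.4 to 80.2 of the olfactory receptor probes.

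Skeletal muscle markers differed in the same comparison. For NDGA in WT 17 of 18 were higher and the median was 1.25. Of the 12 expressed, 9 were called higher, beside 0.902% of all expressed genes. Only 7 of the 18 were expressed for diet and for genotype, so some of the 12 passed the filter through the high NDGA array. For NDGA in ob/ob 14 of 18 were higher (12 with median centring) and the median was 0.33. Of the 9 expressed, 2 were called higher, beside 6.74% of all expressed genes. The summed deposited intensity of all 18 markers was 3307 on WT chow, 2639 on WT high-fat diet, 12667 on WT high-fat diet with NDGA, 3038 on ob/ob chow and 6822 on the ob/ob NDGA array. The muscle creatine kinase Ckm read 1501 and 316 on the 2 NDGA arrays and between 11.7 and 12.4 on the other 3. Cpt1b, which encodes the muscle form of the same enzyme as Cpt1a, read 112 on WT chow, 76.7 on WT high-fat diet, 169 on WT high-fat diet with NDGA, 80.5 on ob/ob chow and 164 on the ob/ob NDGA array. Its NDGA differences were 0.70 in WT and 0.16 in ob/ob mice. The part of muscle RNA in the Cpt1a values was not tested.

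Fgf21 and Angptl4 encode secreted factors. FGF21 is a hormone that the liver releases in fasting and in several forms of nutrient stress, and it acts through FGF receptors with the co-receptor beta-Klotho. Fgf21 read 293 on WT chow, 242 on WT high-fat diet, 227 on WT high-fat diet with NDGA, 191 on ob/ob chow and 486 on the ob/ob NDGA array. The ob/ob NDGA array was the highest in deposited intensity, but after normalization the whole range was only 0.45 and no neighbouring pair of arrays differed beyond the largest spread between probes. Its differences were -0.23 for diet, -0.19 for NDGA in WT, -0.38 for genotype and 0.41 for NDGA in ob/ob mice. The genotype difference was beyond its 0.28 spread between probes and the other 3 were within theirs. Fgf21 lay at percentiles 86.2 to 94.3 of the olfactory receptor probes, below the 90th on ob/ob chow and on WT high-fat diet with NDGA, so its level was close to background.

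ANGPTL4 inhibits lipoprotein lipase, which releases fatty acids from circulating triglyceride. Its brightest probe read 11583 on WT chow, 10311 on WT high-fat diet, 10701 on WT high-fat diet with NDGA, 5599 on ob/ob chow and 21728 on the ob/ob NDGA array. In deposited intensity the 3 WT arrays were close together, ob/ob chow was below them and ob/ob chow with NDGA above them. After normalization ob/ob chow was still the lowest, but ob/ob chow with NDGA was only 0.14 above WT chow, within the spread between probes. Angptl4 was 1.69-fold lower in ob/ob than in WT mice on chow (-0.75 on the log2 scale) and 1.86-fold higher with NDGA in ob/ob mice (0.89). In WT mice it differed by -0.22 with diet and 0.19 with NDGA, both within the spread between probes. The dimmer probes did not show the ob/ob pattern, but lay at percentiles 82.5 to 90.9 and 77.0 to 83.2 of the olfactory receptor probes, against 100 on all 5 arrays for the brightest. The second read 212, 161, 181, 169 and 295 in the same array order, with differences of -0.12 for genotype and -0.02 for NDGA in ob/ob. The third read 106, 113, 109.8, 129 and 148, with differences of 0.32 and -0.42. With the mean of all 3 probes, the genotype difference was -0.18 and the NDGA difference in ob/ob 0.15.

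Pdk4 encodes pyruvate dehydrogenase kinase 4, which switches off pyruvate oxidation when fatty acids are burned. Its probe read 10.2 on WT chow, 4.53 on WT high-fat diet, 5.27 on WT high-fat diet with NDGA, 7.33 on ob/ob chow and 21.3 on the ob/ob NDGA array. All 5 values lay at percentiles from 15.6 to 45.7 of the olfactory receptor probes. The 4 differences ran from -0.14 to 0.19, and at this signal over background no difference in Pdk4 was detectable.

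**Figure D1:**
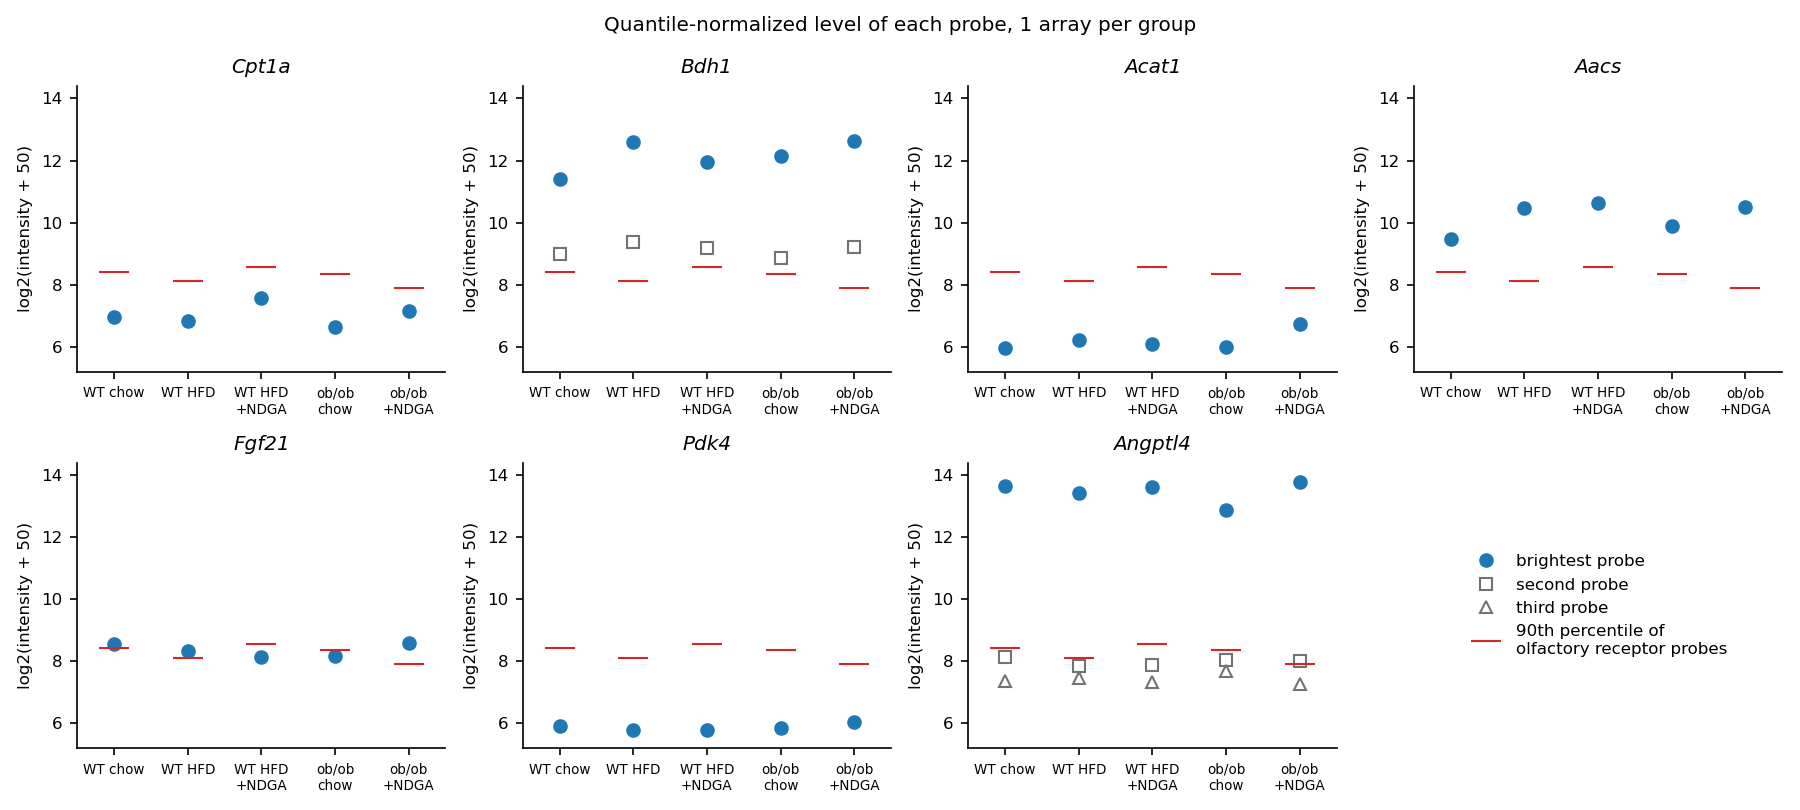
Level of each of the 7 genes on the 5 arrays as quantile-normalized log2(intensity + 50), 1 panel per gene; blue dots are the brightest probe, grey symbols the dimmer probes of Bdh1 and Angptl4, and the red dash the 90th percentile of olfactory receptor probes on that array. Cpt1a, Acat1 and Pdk4 lie below the dash on all 5 arrays, whereas the brightest probes of Bdh1, Aacs and Angptl4 lie above it.

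Ordered over the 5 arrays, few neighbouring values were separated beyond 0.46, the largest spread between probes. For the brighter Bdh1 probe the only such step, of 0.56, parted WT chow from the rest. The dimmer Bdh1 probe was lowest on ob/ob chow. For Aacs a step of 0.58 parted the pair of chow arrays without NDGA from the other 3. For the brightest Angptl4 probe a step of 0.53 parted ob/ob chow from the other 4 arrays. The third Angptl4 probe was highest on ob/ob chow, and with the mean of all probes the Angptl4 range was 0.18. For Acat1, dimmer than the genes that gave the spread between probes, a step of 0.50 parted ob/ob chow with NDGA. Cpt1a, Fgf21 and Pdk4 had no such step, although the range of Cpt1a over the 5 arrays was 0.95.

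Bdh1 and Aacs, the pair with a range above 1 on the log2 scale (1.25 and 1.15), were compared with 8318 other genes for the shape of their profile. The likeness was the root mean square difference between mean-centred profiles over the 5 arrays, given as a description. Closest to Bdh1 were Bckdhb at 0.06, Snx12 at 0.08 and Mtfr1l at 0.08, and 129 genes lay within 0.2. Closest to Aacs were Sult1d1, Bphl and Acsm3, each at 0.14, and 30 genes lay within 0.2. Bdh1 and Aacs themselves were 0.33 apart.

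Promoter sequence was set beside these values for the members that were highest in the diet comparison and for those whose window held a searched motif. RefSeq windows from 250 bases before to 50 after a start site (GRCm38.p6) were matched for 5 of the 7 genes, with 2 start sites for Bdh1; Acat1 and Angptl4 were not matched. The windows shown are those of Bdh1 (first start site, plus strand, chr16:31422047-31422346), Aacs (plus strand, chr5:125475623-125475922), Cpt1a (plus strand, chr19:3323051-3323350) and Fgf21 (minus strand, chr7:45615441-45615740). Each is written 5′ to 3′ on the gene's strand, and capitals mark the motif matches.
Bdh1 promoter: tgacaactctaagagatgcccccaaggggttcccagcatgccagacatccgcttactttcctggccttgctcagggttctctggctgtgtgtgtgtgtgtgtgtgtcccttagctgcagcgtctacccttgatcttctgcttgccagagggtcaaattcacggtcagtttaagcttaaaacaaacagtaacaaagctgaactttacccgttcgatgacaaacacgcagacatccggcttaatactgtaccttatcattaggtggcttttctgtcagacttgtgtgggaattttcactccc
Aacs promoter: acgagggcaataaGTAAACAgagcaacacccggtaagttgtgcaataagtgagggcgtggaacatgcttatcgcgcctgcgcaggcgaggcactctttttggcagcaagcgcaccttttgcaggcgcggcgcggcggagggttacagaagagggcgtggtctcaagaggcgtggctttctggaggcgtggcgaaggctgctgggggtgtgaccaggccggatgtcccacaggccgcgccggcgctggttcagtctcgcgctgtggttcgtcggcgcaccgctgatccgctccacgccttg
Cpt1a promoter: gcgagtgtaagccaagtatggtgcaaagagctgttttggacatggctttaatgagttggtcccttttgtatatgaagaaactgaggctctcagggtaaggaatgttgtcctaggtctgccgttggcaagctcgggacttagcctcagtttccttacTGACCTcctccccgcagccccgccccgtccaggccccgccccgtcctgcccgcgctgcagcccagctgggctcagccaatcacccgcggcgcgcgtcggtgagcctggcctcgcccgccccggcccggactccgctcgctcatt
Fgf21 promoter: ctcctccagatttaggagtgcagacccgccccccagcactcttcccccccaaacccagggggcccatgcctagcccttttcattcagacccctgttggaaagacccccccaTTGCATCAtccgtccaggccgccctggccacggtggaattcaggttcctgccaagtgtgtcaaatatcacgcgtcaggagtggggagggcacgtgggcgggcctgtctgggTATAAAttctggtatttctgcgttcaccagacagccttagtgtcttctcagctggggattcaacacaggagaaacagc

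The first Bdh1 window had a GC content of 48.3% and 7 CpG, and the window of its second start site 63.7% and 17 CpG. The Aacs window had 63.3% and 30 CpG. The medians over all 32851 windows were 52.7% and 7. Motifs were searched on both strands. The nuclear receptor half-site AGGTCA, found in 16.3% of all windows, occurred once among the 6 member windows, on the opposite strand 94 bases before the Cpt1a start. The PPAR-RXR element, taken as 2 such half-sites in direct repeat with 1 base between, was found in none of the 6 even with up to 2 mismatches, which 3.86% of all windows allow; an exact repeat contains the half-site and was held by 0.0396%. GTAAACA, a FOXO motif held by 3.65% of windows, occurred 237 bases before the Aacs start. The Fgf21 window held TGATGCAA, an ATF4 motif found in 0.895% of windows, on the opposite strand 139 bases before the start, and TATAAA, found in 13.6%, 28 bases before it. TGACGTCA, the cyclic AMP motif of 1.79% of windows, was in none of the 6. A match is a description of letters in this window only.

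The comparison of high-fat diet with chow in WT mice asks what the obesogenic diet did to this programme. Bdh1 and Aacs were at least 2-fold higher and the other 5 genes lay between -0.23 and 0.28. Of the 4 members that passed the filter on dim genes, 2 were called higher and 0 lower, beside 2.13% of all 8319 expressed genes called higher and 1.33% called lower. The median of all 7 was -0.13, with 3 of 7 above 0, against a median of -0.01 over expressed genes. With the mean of both Bdh1 probes the Bdh1 difference was 0.81, and 1 member was then called.

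NDGA on the high-fat diet in WT mice addresses the effect of the compound in diet-fed animals. Cpt1a was 0.75 higher and Bdh1 0.66 lower, and the other 5 genes lay between -0.19 and 0.19. None of the 5 members that passed the filter was called in either direction, beside 0.902% of expressed genes called higher and 1.56% called lower. The median of all 7 was 0.00, with 4 of 7 above 0. The marker lists of muscle, macrophage and adipocyte RNA also differed on this pair of arrays, and their part in the Cpt1a and Bdh1 values was not tested. Of the 9 adipocyte markers measured 6 were higher, with a median of 0.35, and 2 of the 5 expressed were called higher.

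ob/ob against WT on chow asks what leptin deficiency did without a change of diet. By the brightest probes, Bdh1 was 0.76 higher and Aacs 0.43 higher, while Angptl4 was 0.75 lower, Fgf21 0.38 lower and Cpt1a 0.33 lower. With the mean of all probes, Bdh1 was at 0.33 and Angptl4 at -0.18. None of the 4 members that passed the filter was called, beside 1.03% of expressed genes called higher and 1.79% called lower. The median of all 7 was -0.08. Without normalization and with median centring, 1 member was called lower: Angptl4, at -1.04 without normalization.

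NDGA in ob/ob mice on chow gave a positive difference for all 7 genes. They ran from 0.19 for Pdk4 to 0.89 for Angptl4, with a median of 0.52, against a median of -0.09 over expressed genes, of which 43.8% lay above 0. None of the 4 members that passed the filter was called, beside 6.74% of expressed genes called higher and 0.505% called lower. The ob/ob NDGA array was the brightest as deposited, and this comparison moved most with the scaling. Without normalization the median of the 7 was 1.15 and 4 members were called higher; with median centring 3 were called and with loess 1. Median centring gave -0.14 for Pdk4, so the sign held for all 7 genes under some scalings only. With the mean of all its probes Angptl4 was at 0.15. After normalization, the marker medians on this pair of arrays were 0.35 for hepatocyte markers (0.62 with median centring; some are saturated), 0.33 for muscle, 0.08 for macrophage and 0.02 for adipocyte markers. The 9 adipocyte markers measured summed to 20250 against 4565 in deposited intensity, of which Car3, also expressed in liver, gave 11196 and 2654, and 2 of the 4 expressed were called higher; Adipoq read 36.3 against 35.6. The part of other cell types in these differences was not tested.

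The comparisons share arrays: WT chow served in the diet and the genotype comparison, WT high-fat diet in the diet and the first NDGA comparison, and ob/ob chow in the genotype and the second NDGA comparison. The 2 NDGA comparisons share none. In both of them Cpt1a was higher (0.75 and 0.52), as was Aacs (0.14 and 0.61), whereas Bdh1 (-0.66 and 0.49), Acat1 (-0.12 and 0.72) and Fgf21 (-0.19 and 0.41) had opposite signs. The difference between the NDGA effects was not tested.

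**Figure D2:**
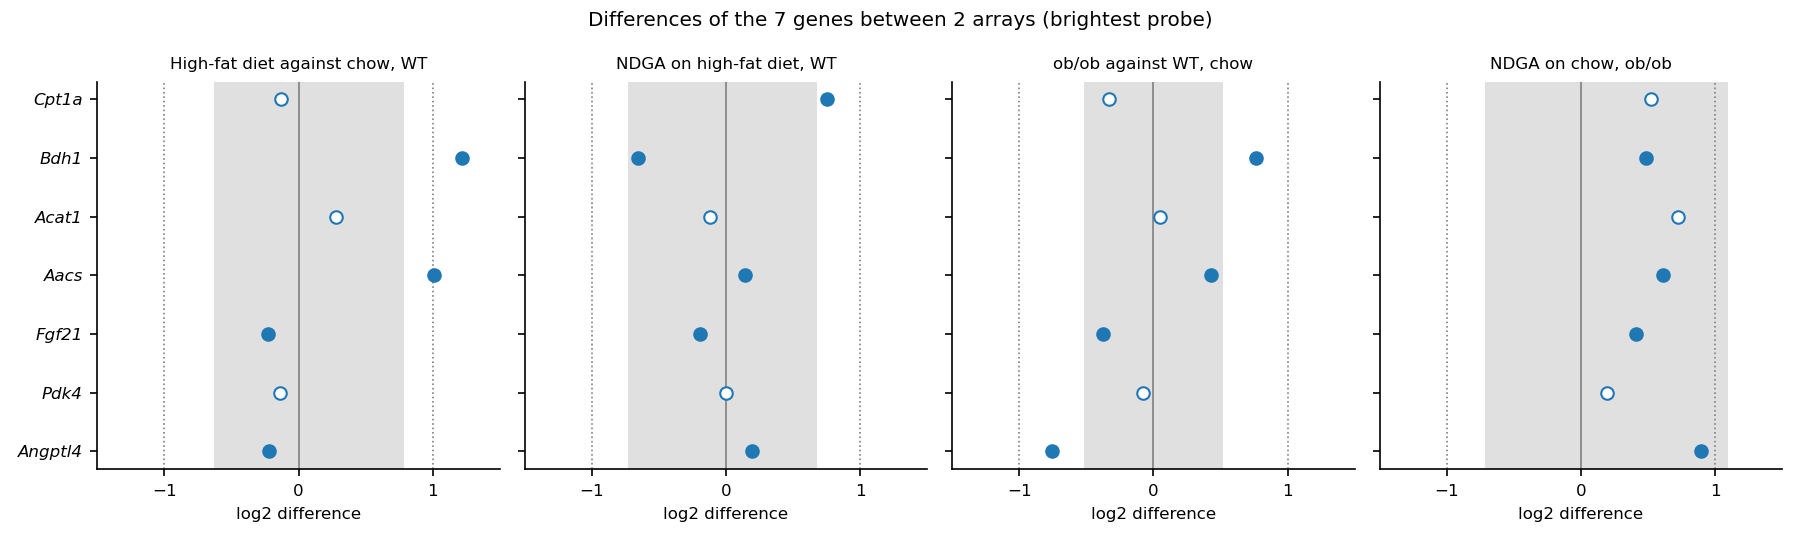
Log2 difference of each of the 7 genes in the 4 comparisons, 1 panel per comparison; filled points passed the filter on dim genes, open points did not, the grey band spans the 5th to 95th percentile of expressed genes and dotted lines mark a 2-fold difference. Bdh1 and Aacs reach the 2-fold line for high-fat diet, and in the panel for NDGA in ob/ob mice all 7 points lie above 0 and inside the band.

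**Figure D3:**
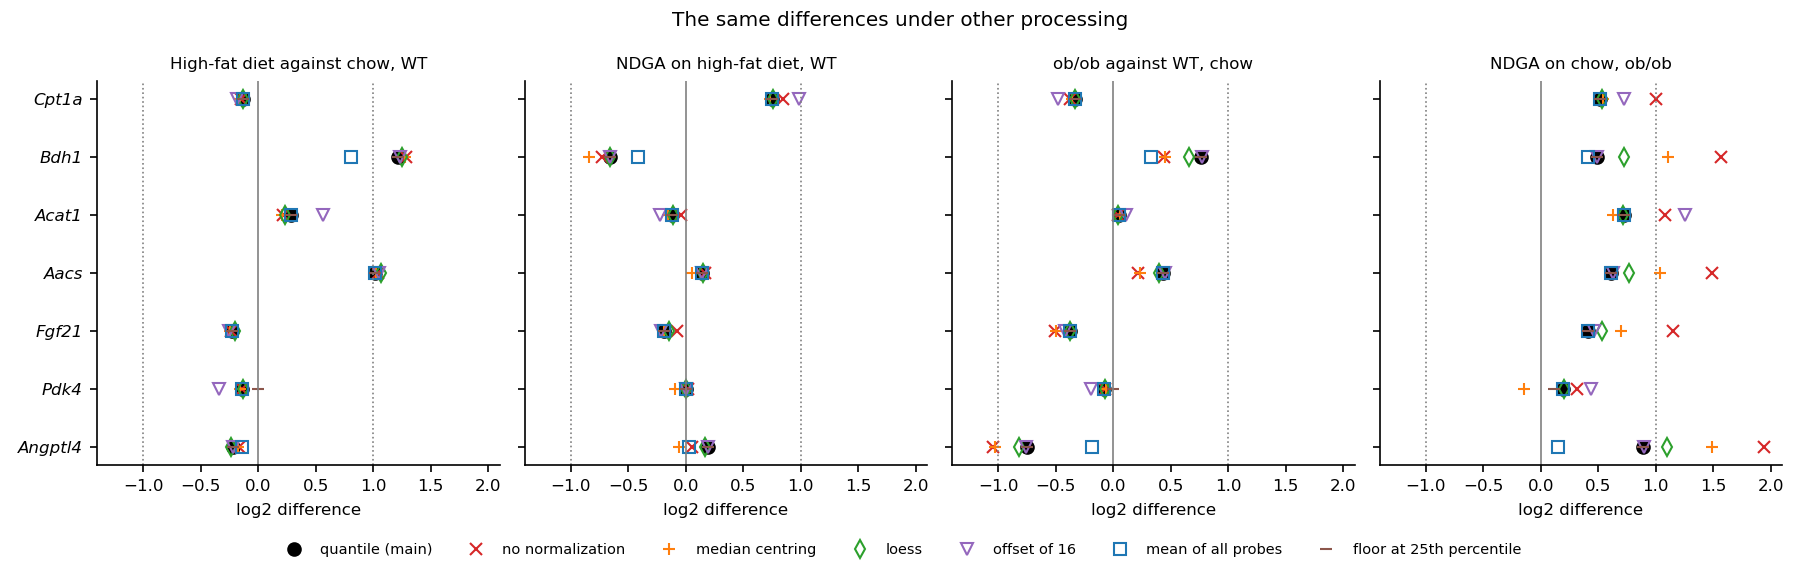
The same log2 differences recomputed under 7 settings, 1 panel per comparison, with a symbol for each setting. The values lie close together in the first 2 panels for most genes and spread widest for NDGA in ob/ob mice, where Angptl4 runs from 0.15 with the mean of its probes to 1.95 without normalization.

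The neighbours of these genes were read from lists chosen by function, with the 7 genes left out. Of the 11 other genes of ketone body synthesis, use and export, 8 were named on the array and 3 passed the filter in each comparison. Oxct1, the enzyme that lets other organs use acetoacetate and that hepatocytes barely express, read 454 on WT chow, 475 on WT high-fat diet, 1132 on WT high-fat diet with NDGA, 649 on ob/ob chow and 973 on the ob/ob NDGA array. Its log2 differences were 0.06 for diet, 1.11 for NDGA in WT, 0.68 for genotype and -0.31 for NDGA in ob/ob. The WT NDGA array had the highest muscle markers, whose medians were -0.02 for genotype and 0.33 for NDGA in ob/ob. Slc16a6, a carrier for ketone body export, read 19.8, 158, 49.7, 52.8 and 259 in the same array order. On every array this lay below the 90th percentile of the olfactory receptor probes, within the range of background. Its differences were 1.65 for diet (not past the filter), -1.19 for NDGA in WT and 1.01 for NDGA in ob/ob. It passed the filter in the NDGA comparisons only, where its high array carried it past. Slc16a6 was, like the brighter Bdh1 probe, lower on WT chow than on the other 4 arrays. With the mean of its 2 probes no Slc16a6 difference reached 2-fold. Slc16a7, a monocarboxylate carrier, read 271 on WT chow and 10.5 to 18.9 on the other 4 arrays, so that both its 2-fold differences (-2.38 for diet and -2.51 for genotype) rest on 1 array.

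In the carnitine shuttle around Cpt1a all 7 other genes were expressed. None was called for diet, for NDGA in WT or for genotype, with median differences of 0.09, 0.02 and -0.08. For NDGA in ob/ob mice 2 of 7 were called higher and 0 lower, beside 6.74% of expressed genes called higher, with a median of 0.65: Cpt2, the inner membrane partner of Cpt1a, at 1.18, and Slc25a20, the carnitine carrier, at 1.03. Where genes with several probes were averaged over them, the median of this list was 0.16. Crat, which moves short acyl groups, stood at 0.65 in both NDGA comparisons, and Cpt1c, a form known from brain, at 0.72 in WT and -0.79 in ob/ob mice. Of the 5 thiolases and trifunctional enzyme genes measured, other than Acat1, Acaa1a (peroxisomal) was the one called. It was at 1.13 for NDGA in ob/ob, beside 6.74% of expressed genes called higher. Acaa1b, Acaa2 and Scp2 were saturated on the ob/ob NDGA array, so no list median is given there.

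Around Pdk4, none of the 7 expressed genes of pyruvate dehydrogenase and its kinases and phosphatases, of 11 measured, was called in any comparison. Pdk2, the kinase of the fed liver, was at 0.22 for diet, -0.50 for NDGA in WT, -0.44 for genotype and 0.69 for NDGA in ob/ob. Around Fgf21, 3 of 6 genes for its receptors and for the protease that cleaves it (Fap) were expressed. Fgfr2 was called lower with NDGA in ob/ob, beside 0.505% of expressed genes. It was just past the 2-fold line, but was at -0.62 with median centring and -0.17 without normalization. Klb, which encodes beta-Klotho, read 22.6 on WT chow, 44.3 on WT high-fat diet, 36.9 on WT high-fat diet with NDGA, 21.5 on ob/ob chow and 137 on the ob/ob NDGA array, and did not pass the filter. Around Angptl4, 7 of 8 genes measured were expressed. For NDGA in ob/ob only, 1 of 7 was called higher, beside 6.74% of expressed genes: Apoc3, an apolipoprotein that slows triglyceride clearance, at 1.27. Lpl, the target of ANGPTL4, was above 0 in all 4 comparisons, at 0.38, 0.62, 0.61 and 0.63.

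Among 14 measured regulators of the fasting response, 11 were expressed and 0 were called for diet, NDGA in WT or genotype. For NDGA in ob/ob 1 of 11 was called higher, beside 6.74% of expressed genes, Cebpb at 1.18, while Atf4, a stress factor that induces Fgf21, was at 0.98. Atf4 was at 0.45 for diet, -0.78 for NDGA in WT and -0.19 for genotype. The median of the regulators for genotype was -0.17, with 1 of 14 above 0. Of 28 other PPAR-alpha target genes measured, 2 were called higher for diet, 3 for NDGA in WT, 2 for genotype and 9 for NDGA in ob/ob, with 0 lower, among 25, 26, 25 and 26 expressed. The shares called higher over all expressed genes were 2.13%, 0.902%, 1.03% and 6.74% in these comparisons. The list medians were 0.20, 0.12, 0.00 and 0.36, and 0.23, 0.16, 0.00 and 0.41 without the probes saturated on any array. The 2 called for diet, like the 2 for genotype, were Cidea and Cidec, which encode lipid droplet proteins. The fatty acid oxidation genes Ehhadh and Cyp4a14 and the droplet gene Cidea were called in both NDGA comparisons. They were at 1.34, 1.13 and 1.13 in WT and 1.57, 2.34 and 1.94 in ob/ob mice. Cidea is also on the list of adipocyte markers, so these lists are not separate. Of 15 other fasting-induced genes measured, 9 were expressed; 1 was called higher for genotype, beside 1.03% of expressed genes, and 2 for NDGA in ob/ob, beside 6.74%, Igfbp1 at 1.99 and Txnip at 1.53. None of the lists was tested. For NDGA in ob/ob mice the counts called higher grew without normalization, beside 32.4% of all expressed genes called higher under that setting. They were then 4 in the carnitine shuttle, 2 among the thiolases, 4 around Pdk4 and 4 around Angptl4. The regulators had 7, the PPAR-alpha targets 19 and the fasting-induced genes 8.

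**Figure D4:**
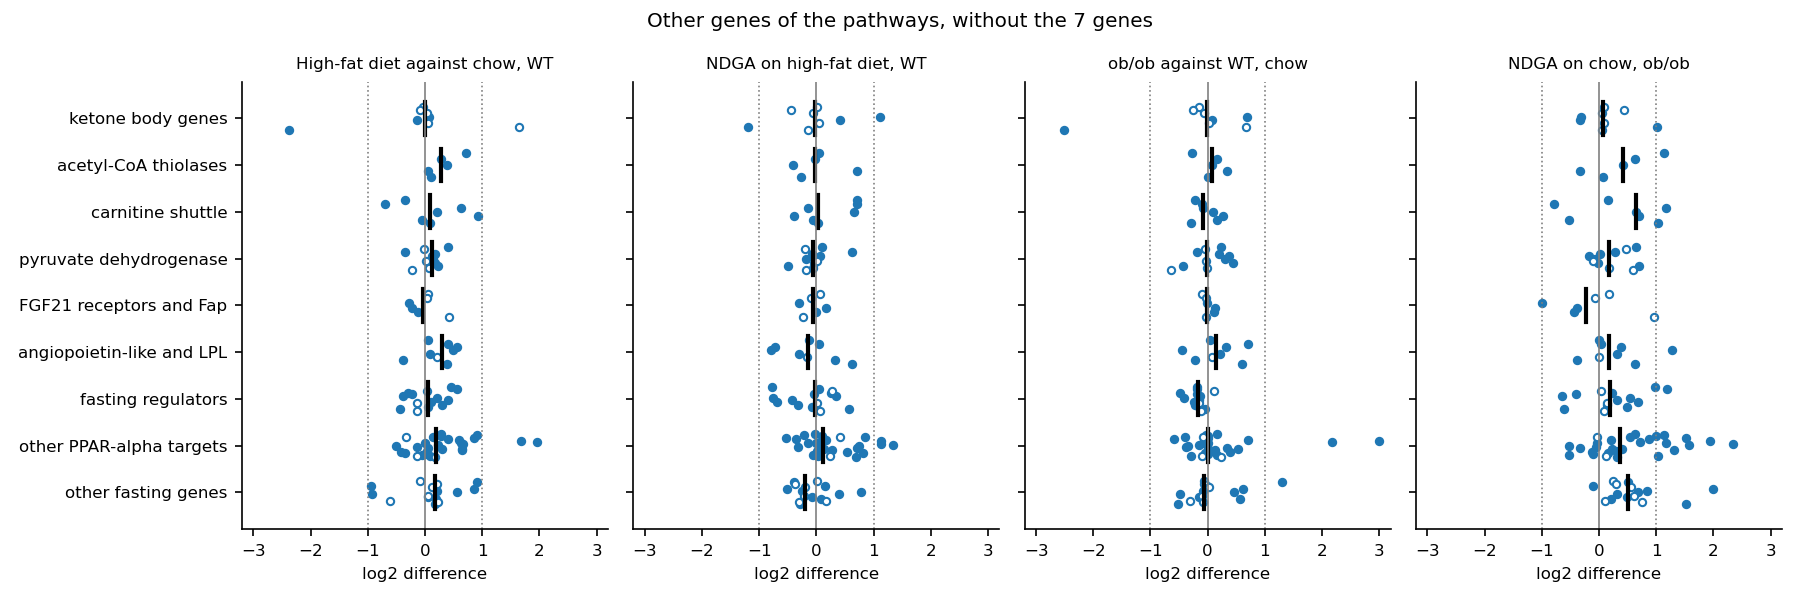
Log2 difference of each gene in 9 pathway lists, without the 7 genes themselves, in 1 panel per comparison; filled dots passed the filter on dim genes, open dots did not, and the black bar is the median of all listed genes measured. The bars lie near 0 in the first 3 panels, between -0.20 and 0.29, and reach 0.65 for the carnitine shuttle in the panel for NDGA in ob/ob mice.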

How the data were processed

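Liver RNA of 5 mouse groups was measured on 1 array each. The deposited intensities are linear, judging from the values, which run from below 0 to above 65000; no label names the authors' scanner, background subtraction or scaling. Probes were named through the platform's annotation (21020 of 29922 with 1 symbol), with symbols updated from RefSeq. Because array medians differed by 0.46 on the log2 scale, above the limit of 0.1, intensities were quantile normalized and log2(value + 50) was taken; the plan named no size for the offset, and 50 came from an earlier analysis that had seen the values. Of several probes for one gene, the brightest over the 5 arrays stood for it. Called means at least 2-fold apart (log2 difference of 1) among the 8319 expressed genes. No test was possible. Alternatives were no normalization, median centring, loess (span 0.3), an offset of 16, the mean of all probes, a floor at the 25th percentile, no filter and a filter at the 75th percentile. The genes named were the 7 members, up to 4 expressed genes with the largest difference per list and comparison, and the 3 profiles most like a member with a range of at least 1. Klb, the markers Ckm, Apoa2, Car3 and Adipoq, and the alternative leaving out saturated probes were chosen after values were seen. Members and lists were chosen with earlier results of these data known. Python 3.11.15, numpy 2.4.6, pandas 2.3.3 and statsmodels 0.14.6 were used; the steps were tested on simulated data.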

Additional observations from a re-analysis of the deposited data

Results flagged for a closer look

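In 3 genes the NDGA difference had opposite signs in WT mice on the high-fat diet and in ob/ob mice on chow, and the difference between the NDGA effects was not tested. Bdh1 was at -0.66 in WT and 0.49 in ob/ob mice by its brighter probe. Its dimmer probe was at -0.18 and 0.34, both within the spread between probes. The mean of both probes gave -0.42 and 0.41, the latter within that spread. Acat1 was at -0.12 and 0.72, and was dim on all 5 arrays. Fgf21 was at -0.19 and 0.41, both within the spread between probes.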

How the results depend on the processing

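Of 28 member differences, 25 kept their sign under all 6 alternative settings of scaling, offset, probe mean and floor. Many values could not change, as the floor altered Pdk4 alone and the probe mean only Bdh1 and Angptl4. The exceptions were Angptl4 for NDGA in WT (-0.06 with median centring) and Pdk4 in both NDGA comparisons (-0.10 and -0.14 with median centring). Dimmer probes taken singly were not among these settings, and some kept the sign of the brightest probe while others did not. For genotype, the dimmer Bdh1 probe was at -0.10 and the third Angptl4 probe at 0.32, both opposite to the brightest. For NDGA in ob/ob the second Angptl4 probe, at -0.02, and the third, at -0.42, were also opposite. The third was opposite for diet (0.08) and for NDGA in WT (-0.13) as well. Of 168 values, 15 moved beyond the spread between probes. For NDGA in ob/ob mice, the median of the 7 was 1.15 without normalization, and the members called higher were 4 without normalization, 3 with median centring and 1 with loess, against 0. For genotype, 1 member was called lower without normalization and 1 with median centring, against 0. For diet, 1 was called higher with the mean of all probes, against 2. Over all expressed genes, 561 higher and 42 lower for NDGA in ob/ob became 2696 and 5 without normalization, 1240 and 6 with median centring and 790 and 18 with loess. The split for genotype, 86 and 149, became 47 and 202 without normalization and 48 and 198 with median centring; for NDGA in WT, 75 and 130 became 92 and 92 without normalization. No paired analysis was possible because each group has 1 array. Without replicates no difference has a known error, and Cpt1a, Acat1, Pdk4 and the dimmer Angptl4 probes lie within the range of olfactory receptor probes, with Fgf21 close to it.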
